A study of Mus musculus with 24 samples.

Results

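The matrix of the liver holds many secreted proteins besides collagen, and 43 genes of this kind were followed here. They were chosen by symbol as the non-collagen glycoproteins, proteoglycans, elastic fibre proteins, lysyl oxidases and latent TGF-beta binding proteins, and all 43 were found among the 78298 gene IDs of the table. Transcripts were counted by RNA sequencing in whole liver from 18 mice of a steatohepatitis model and 6 normal control mice, with 1 library per mouse. The labels name the tissue and these 2 groups, and no strain, sex, age, diet or duration is given in the sources used here. The mice of a group are taken as separate animals, as the labels number them.

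Steatohepatitis is inflammation of a fatty liver, and its scarring phase is marked by deposition of matrix. In scar tissue collagen fibrils are spaced by small proteoglycans, crosslinked by lysyl oxidases and laced with fibronectin, and elastic fibres form on fibrillin microfibrils that also store latent TGF-beta. Most of these genes are transcribed by stellate cells and portal fibroblasts, while hepatocytes secrete vitronectin and plasma fibronectin into the blood.

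Library totals lay between 31.6 M and 58.4 M counts, and 3 counts in a library stand for 0.0514 to 0.0949 CPM, the count scaled to a common library size. Levels are CPM scaled with TMM factors, and 3 values for a group are its lowest, median and highest mouse. Tests used edgeR's quasi-likelihood F test over 17456 genes, with Benjamini-Hochberg adjustment over all of them and a call at an adjusted p below 0.05. Library model 10 stood apart among the model mice. Its summed level of the fibrillar collagen genes Col1a1, Col1a2 and Col3a1 was 25.2 CPM, against 71.6 to 219 CPM in the other model mice, while controls had 5.64 to 23.6 CPM. A clock index, the mean log2 CPM of 9 clock genes of one phase minus that of 5 of the opposite phase, also differed, at 2.42 to 3.52 in model mice and at -0.945 to 1.02 in controls 1 to 5, with control 6 at 3.29. Where model 10 or the clock index changed a call or a range by much, both values are given.

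Markers of matrix-producing cells were higher in model livers. Of 10 stellate cell markers 9 were called higher, and their summed level was 84.5 to 174 CPM in model mice and 39.5 to 79.2 CPM in controls. Of 8 portal fibroblast markers the 4 tested were all called higher, and the list summed to 8.67 to 21.4 CPM in model mice and 4.97 to 8.77 CPM in controls. The portal fibroblast markers Gli1, Pi16, Clec3b and Slit2 were too low to test, with 50 to 150 counts each over the model mice. None of 5 smooth muscle markers was called, and the mesothelial markers Msln and Upk3b were called lower. Of 8 endothelial markers 6 were called higher, and of 8 macrophage markers all 8, with a macrophage sum of 272 to 994 CPM in model mice and 49.2 to 124 CPM in controls. The 7 hepatocyte markers tested were all called lower, and their sum was 56492 to 115573 CPM in model mice and 117925 to 182491 CPM in controls. Of 7 cholangiocyte markers 6 were tested, and Spp1 and Cftr were called higher. Of 5 platelet markers 3 were tested, and Pf4 alone was called higher, while Gp1bb was at 0 in every library. Of all genes tested 31.2% were called higher and 28.8% lower, and the cholangiocyte and platelet counts lie near the first share. The adipocyte markers Adipoq, Plin1 and Lep had 1 to 22 counts each over the model mice, and Cfd was called higher. With the clock index fitted as a covariate, 10 stellate, 3 portal fibroblast, 6 endothelial and 8 macrophage markers were called higher. There 5 hepatocyte markers were called lower, and no mesothelial, cholangiocyte or platelet marker was called. The shares of all genes tested were then 20.6% higher and 16.8% lower. In whole tissue fewer cells of a type and less RNA per cell cannot be told apart, and the part of these markers in the matrix results was not tested.

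Most of the 43 matrix genes were higher in the model livers. Of the 41 members tested, 33 were called higher (edgeR, adjusted p below 0.05), against 31.2% of all 17456 genes tested. A further 3 were called lower, namely Vtn, Fn1 and Nid2, against 28.8% of all genes, so that 36 of 41 were called in either direction, against 60.0%. The 5 members Fmod, Ogn, Fbln1, Ecm1 and Loxl4 were tested and not called, and Aspn and Mfap5 were too low to test. The median log2 fold change of the members tested was 1.37, beside 0.01 for all genes tested. Of the 41 members tested, 28 were called higher with a change of at least 2-fold, against 16.3% of all 17456 genes tested.

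For 12 members every model mouse lay above every control, against 9.67% of all genes tested, and for Vtn every model mouse lay below, against 6.02%. The groups overlapped for the other 21 higher members. In 8 of these model 10 was the one model mouse within the control range, and these were Bgn, Thbs2, Dpt, Lox, Loxl1, Loxl2, Ltbp2 and Ltbp3. Without model 10 the counts of calls were again 33 higher and 3 lower, against 5422 and 5175 of 17410 genes tested. Scaling by library totals alone puts the middle of all genes at a log2 fold change of 0.34. It gave 36 higher members and 1 lower, against 9406 and 1562 of all 17456 genes tested. Upper-quartile factors gave 33 higher and 3 lower, against 6289 and 3733. Once the clock index was fitted as a covariate, 31 members were higher and 1 lower, against 20.6% and 16.8% of all genes tested. Of the 33 higher members 29 kept their call with the covariate, and the 4 that did not are Fbln2, Mfap2, Mfap4 and Ltbp3. The log2 fold change was larger with the covariate for 29 of the 33. Among the controls only control 6 lies within the range of the model mice on the clock index. The covariate fit therefore leans on that mouse and is no separate check from the next setting. With control 6 as the single control, a setting chosen after seeing the data, that mouse is assumed to vary like the model mice, and the spread of controls is not measured. There 24 members were higher and 1 lower, against 14.9% and 11.0% of all genes tested. The higher members not called there were Fbln2, Mfap2, Mfap4, Sparcl1, Thbs3, Dpt, Lox, Loxl1, Ltbp2 and Ltbp3, while Loxl4 was called. The log2 fold changes of these 10 ran from 0.95 for Fbln2 to 4.57 for Lox, and they were smaller than with all controls for Fbln2, Thbs3 (1.03) and Ltbp3 (1.02) and larger for the other 7.

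**Figure D1:**
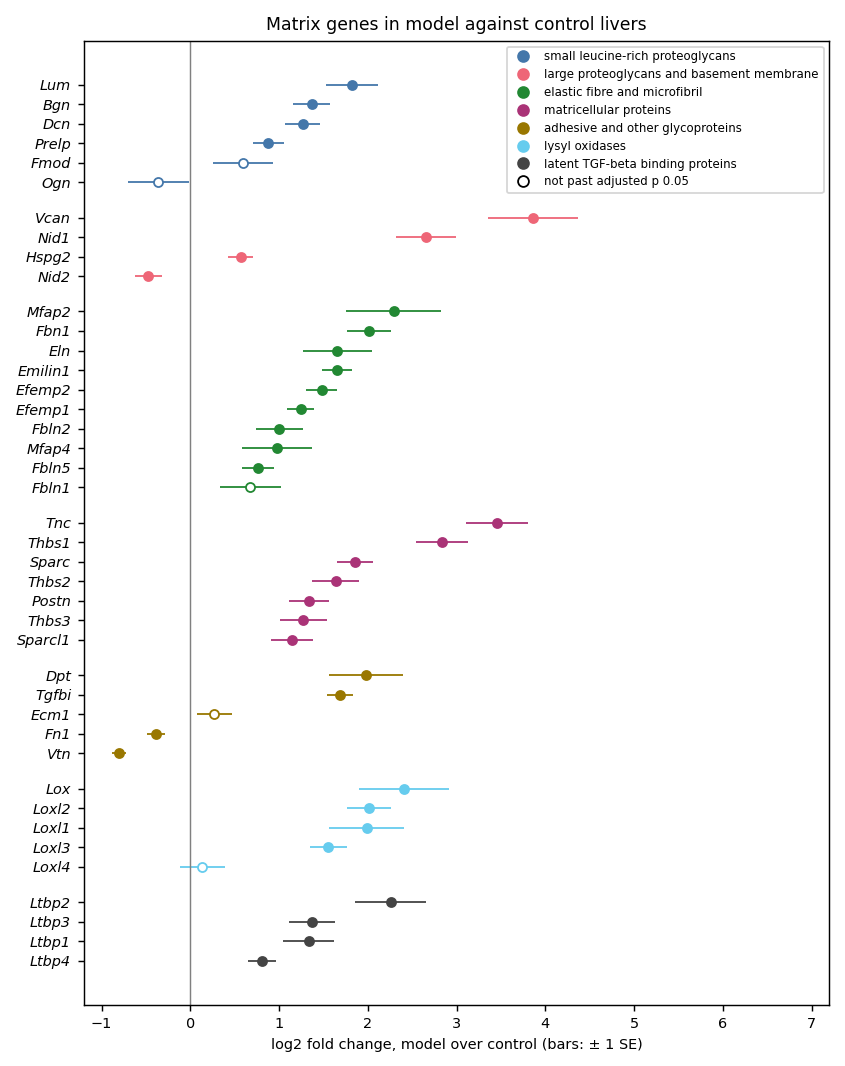
Log2 fold change of each matrix gene tested, model (n = 18) over control (n = 6), with bars of 1 standard error, grouped and coloured by role; open points did not pass an adjusted p of 0.05. Vcan (3.86) and Tnc (3.46) lie farthest to the right, and Vtn (-0.80), Nid2 (-0.47) and Fn1 (-0.38) are the filled points left of 0.

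Promoters are shown for 5 members with different patterns. Nid1, Sparc and Ltbp2 were higher in the model and followed fibrillar collagen over the model mice, Prelp was higher and did not pass that test, and Vtn was lower. RefSeq promoters of the earlier build GRCm38.p6 were matched for 30 of the 43 members, with 40 windows in all. The 250 bases before the start are shown 5′ to 3′ on the gene's strand for Nid1 (chr13:13437352-13437601, plus strand), Sparc (chr11:55420081-55420330, minus), Ltbp2 (chr12:84876492-84876741, minus), Prelp (chr1:133921402-133921651, minus) and Vtn (chr11:78498870-78499119, plus). Capitals mark the TATA box TATAAA, the TEAD core GGAATG, the AP-1 core TGANTCA and the CArG box, searched on both strands.
Nid1: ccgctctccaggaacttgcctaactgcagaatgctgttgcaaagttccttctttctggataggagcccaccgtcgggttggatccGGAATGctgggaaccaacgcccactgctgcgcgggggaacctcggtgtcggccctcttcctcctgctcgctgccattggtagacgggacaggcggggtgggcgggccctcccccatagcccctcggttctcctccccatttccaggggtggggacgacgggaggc
Sparc: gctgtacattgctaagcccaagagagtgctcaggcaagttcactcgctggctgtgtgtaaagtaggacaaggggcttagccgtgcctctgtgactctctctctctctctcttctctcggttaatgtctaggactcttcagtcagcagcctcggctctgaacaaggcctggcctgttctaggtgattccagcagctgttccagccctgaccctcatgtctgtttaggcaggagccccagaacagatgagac
Ltbp2: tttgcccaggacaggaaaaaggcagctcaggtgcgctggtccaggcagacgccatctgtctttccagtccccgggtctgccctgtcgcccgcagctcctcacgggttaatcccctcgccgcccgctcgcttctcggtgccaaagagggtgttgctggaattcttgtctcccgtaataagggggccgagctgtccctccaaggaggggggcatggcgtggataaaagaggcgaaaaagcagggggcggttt
Prelp: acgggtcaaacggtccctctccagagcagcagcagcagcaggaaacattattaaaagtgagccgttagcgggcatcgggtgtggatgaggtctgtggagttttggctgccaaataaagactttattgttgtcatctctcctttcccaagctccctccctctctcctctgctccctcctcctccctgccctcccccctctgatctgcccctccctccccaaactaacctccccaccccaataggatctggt
Vtn: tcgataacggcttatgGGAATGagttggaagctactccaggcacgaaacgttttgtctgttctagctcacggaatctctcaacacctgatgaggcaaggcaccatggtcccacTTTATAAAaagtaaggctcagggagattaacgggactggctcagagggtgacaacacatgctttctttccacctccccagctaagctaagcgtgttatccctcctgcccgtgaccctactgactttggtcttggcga

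The windows of Sparc, Ltbp2 and Prelp held none of the 4 motifs in capitals. The TEAD core was found in the windows of Nid1, from base -165 to -160, and of Vtn, from -234 to -229, and in those of Mfap2 and Ogn. Vtn also held a TATA box on each strand, overlapping between bases -137 and -130. Of the 40 member windows 8 held a TATA box, 4 a TEAD core, 2 an AP-1 core and 0 a CArG box. Of 32851 mouse promoters of this length 12.4% held a TATA box, 12.6% a TEAD core, 6.75% an AP-1 core and 1.47% a CArG box. The GC box GGGCGG, which is not in capitals, was found in 23 of the 40 member windows, of 18 genes, and in 32.7% of all promoters. A match to a motif is a description of the letters only.

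Among the small leucine-rich proteoglycans, whose leucine-rich protein cores bind collagen fibrils, 4 of the 6 members tested rose and 0 fell. Lum encodes lumican, which regulates fibril diameter (chromosome 10, 97400990 to 97408565, GRCm39). Its level in model mice was 5.81 CPM at the lowest, 12.5 at the median and 24.2 at the highest, against 1.76, 4.16 and 5.40 CPM in controls. The groups did not overlap (log2 fold change 1.82, SE 0.30, edgeR adjusted p = 9.81e-06). Bgn encodes biglycan, a dermatan sulfate proteoglycan that also signals through Toll-like receptors (chromosome X, 72527208 to 72539539). It had 47.3, 102 and 139 CPM as lowest, median and highest level in model mice, against 18.2, 38.7 and 51.7 CPM in controls. Only model 10 lay within the control range (log2 fold change 1.37, SE 0.20, edgeR adjusted p = 3.12e-06).

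Dcn, the gene of decorin, a binder of both collagen and TGF-beta, was the most abundant member of this role per length (chromosome 10, 97315471 to 97354005). Its levels were 68.3, 138 and 189 CPM in model mice and 30.3, 63.0 and 84.4 CPM in controls. Model 9 was the 1 model mouse in the control range (log2 fold change 1.26, SE 0.20, edgeR adjusted p = 5.55e-06). Prelp, which encodes a proteoglycan that anchors basement membranes to connective tissue, rose with a log2 fold change of 0.88 (SE 0.18, edgeR adjusted p = 0.000129), and 15 of 18 model mice lay above all controls. Fmod, the fibromodulin gene, did not pass the test (log2 fold change 0.59, SE 0.34, edgeR adjusted p = 0.131). It spread from 0.719 to 4.32 CPM in model mice and from 0.541 to 2.06 CPM in controls. Scaled by library totals alone, Fmod was called (0.95, edgeR adjusted p = 0.0269).

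Ogn, the osteoglycin gene, spread from 0.0899 to 1.07 CPM in model mice and from 0.283 to 0.924 CPM in controls (log2 fold change -0.36, SE 0.34, edgeR adjusted p = 0.374). With the clock covariate its sign turned, at 0.35 (edgeR adjusted p = 0.702). Aspn, the asporin gene, had 34 counts over the model mice and 8 over the controls. The members of this role lie in clusters. Dcn and Lum are 47.0 kb apart on chromosome 10, and both rose. Prelp and Fmod are 116 kb apart on chromosome 1, and Prelp alone passed the test. Ogn lies 40.5 kb from Aspn on chromosome 13, in a cluster with Omd and Ecm2, 2 related genes outside the 43. Omd was called higher with a log2 fold change of 1.39 and Ecm2 with 0.81, whereas Ogn was not called.

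The large proteoglycans and basement membrane linkers went both ways, with 3 members higher and 1 lower. Vcan encodes versican, a chondroitin sulfate proteoglycan that binds hyaluronan in provisional matrix (chromosome 13, 89803431 to 89890628). In controls it was near the limit of detection, with 10 counts in all, and 2 of the 6 control libraries had none. Its levels were 0.139, 0.778 and 1.53 CPM in model mice and 0, 0.0485 and 0.107 CPM in controls. Every model mouse lay above every control (log2 fold change 3.86, SE 0.51, edgeR adjusted p = 3.58e-07). Nid1, the gene of nidogen-1, which links laminin to type IV collagen, was the most abundant of this role per length in model mice (chromosome 13, 13612136 to 13686854). It had 8.06, 29.5 and 60.1 CPM in model mice and 2.57, 4.78 and 7.92 CPM in controls. The groups did not overlap, with model 10 just above control 2 (log2 fold change 2.65, SE 0.34, edgeR adjusted p = 3.87e-07).

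Hspg2, the gene of the basement membrane heparan sulfate proteoglycan perlecan, rose less, with a log2 fold change of 0.57 (SE 0.14, edgeR adjusted p = 0.00106). Nid2, the nidogen-2 gene, went the other way from Nid1 (chromosome 14, 19801333 to 19861855). Its levels were 2.22, 2.97 and 3.62 CPM in model mice and 2.12, 4.65 and 5.32 CPM in controls. The 18 model mice lay close together, while controls 3 and 6 lay below all of them and the other 4 controls above all of them (log2 fold change -0.47, SE 0.15, edgeR adjusted p = 0.0101). The call was lost and the sign turned with the clock covariate, at 0.35 (edgeR adjusted p = 0.240). It was also lost with library totals alone (-0.14, edgeR adjusted p = 0.478). A stretch of 437 bases of its exons, 8.45% of their length, overlaps exons of Rtraf on the opposite strand. Rtraf had 44931 counts over the model mice, against 2278 for Nid2, and reads of the overlap cannot be told apart unless the counting used strand, a setting not given in the sources used here.

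Genes of elastic fibres and microfibrils rose in 9 of the 10 members tested. Mfap2 encodes MAGP-1, a glycoprotein bound to fibrillin microfibrils (chromosome 4, 140737729 to 140743295). It had 0.0834, 0.259 and 0.641 CPM in model mice and 0.0248, 0.0330 and 0.178 CPM in controls, with 12 counts in all controls together. Of the model mice 13 lay above every control (log2 fold change 2.29, SE 0.53, edgeR adjusted p = 0.000612). The call was lost with the clock covariate (2.19, edgeR adjusted p = 0.0854). Fbn1, which encodes fibrillin-1, the main protein of these microfibrils, separated the groups fully (chromosome 2, 125142514 to 125349913). Its levels were 1.53, 3.92 and 5.80 CPM in model mice and 0.439, 0.982 and 1.22 CPM in controls (log2 fold change 2.01, SE 0.25, edgeR adjusted p = 1.32e-07).

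Efemp1, the gene of fibulin-3, was the most abundant member of this role per length (chromosome 11, 28803204 to 28876743). It had 7.61, 11.3 and 16.0 CPM in model mice and 3.28, 4.58 and 6.39 CPM in controls. The groups did not overlap (log2 fold change 1.24, SE 0.15, edgeR adjusted p = 1.33e-07). Eln, the tropoelastin gene, rose 3.15-fold (log2 fold change 1.66, SE 0.39, edgeR adjusted p = 0.000753), and 4 model mice, models 1, 8, 10 and 11, lay within the control range. Emilin1, whose product sits at the interface of elastin and microfibrils, had a log2 fold change of 1.65 and Efemp2, the gene of fibulin-4, which brings lysyl oxidase to elastin, of 1.48. For both the groups did not overlap.

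Fbln2 had a log2 fold change of 1.00, Mfap4 of 0.98 and Fbln5 of 0.76. These genes encode fibulin-2, a microfibril-associated glycoprotein and fibulin-5. The call of Mfap4 was the least stable of these, with an edgeR adjusted p of 0.0354 that exceeded 0.05 without control 1 (0.0625), 2 (0.0516), 3 (0.0625) or 6 (0.0854), while its log2 fold change stayed between 0.86 and 1.01 there. With the clock covariate its value was 1.38 (edgeR adjusted p = 0.161). Model mice ran from 0.394 to 4.07 CPM for Mfap4 and controls from 0.473 to 1.04 CPM. The call of Fbln2 was lost with the clock covariate (1.12, edgeR adjusted p = 0.0613). Fbln1, the fibulin-1 gene, was not called (log2 fold change 0.67, SE 0.34, edgeR adjusted p = 0.0934), and 9 model mice lay above all controls and 2 below all of them. Scaled by library totals alone, Fbln1 was called (1.03, edgeR adjusted p = 0.0173). Mfap5 had 7 counts over the model mice and 1 over the controls.

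Matricellular proteins, secreted proteins that signal to cells more than they build fibres, rose in all 7 members. Tnc encodes tenascin-C, a protein of injured and remodelling tissue (chromosome 4, 63878022 to 63965252). Its levels were 0.528, 3.14 and 5.45 CPM in model mice and 0.169, 0.270 and 0.397 CPM in controls. Every model mouse lay above every control, with model 10 the lowest (log2 fold change 3.46, SE 0.35, edgeR adjusted p = 7.36e-09). Thbs1 encodes thrombospondin-1, an activator of latent TGF-beta (chromosome 2, 117942357 to 117957614). It had 1.33, 4.06 and 6.18 CPM in model mice and 0.386, 0.522 and 0.671 CPM in controls, again without overlap (log2 fold change 2.83, SE 0.30, edgeR adjusted p = 9.96e-09).

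Sparc, the osteonectin gene, was the most abundant of this role per length and encodes a collagen-binding protein needed for fibril assembly (chromosome 11, 55285326 to 55314009). It had 23.1, 58.5 and 87.8 CPM in model mice and 9.33, 16.6 and 22.7 CPM in controls. Model 10 lay just above the highest control, and the groups did not overlap (log2 fold change 1.86, SE 0.20, edgeR adjusted p = 2.83e-08). The other 4 members had log2 fold changes of 1.64 for Thbs2, 1.34 for Postn, 1.27 for Thbs3 and 1.15 for Sparcl1. Postn encodes periostin, a partner of Bmp1 and lysyl oxidase in collagen crosslinking, and Thbs2 and Thbs3 encode further thrombospondins. Exons of Thbs3 share 318 bases with Mtx1 on the opposite strand, a gene with 11972 counts over the model mice beside 435 for Thbs3.

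The adhesive glycoproteins held both the largest levels of all members and the clearest decrease. Vtn encodes vitronectin, an adhesive protein of plasma made by hepatocytes (chromosome 11, 78389917 to 78393150). Its levels were 1470 CPM at the lowest, 1791 at the median and 2293 at the highest in model mice, against 2756, 3117 and 3672 CPM in controls. Every model mouse lay below every control (log2 fold change -0.80, SE 0.08, edgeR adjusted p = 4.61e-09). With the clock covariate the value was -0.90 (edgeR adjusted p = 1.73e-05). Fn1, the fibronectin gene, was lower on average, and its groups overlapped (chromosome 1, 71624679 to 71692359). It had 941, 1241 and 1526 CPM in model mice and 1324, 1619 and 2056 CPM in controls (log2 fold change -0.38, SE 0.10, edgeR adjusted p = 0.00188). Of the model mice 12 lay below all controls, and the call was lost with the clock covariate (-0.15, edgeR adjusted p = 0.524) and with library totals alone (-0.06, edgeR adjusted p = 0.599). All 7 hepatocyte markers tested were called lower in the same libraries, with a median log2 fold change of -0.88. With the clock covariate 5 were called lower, and the part of these markers in the Vtn and Fn1 values was not tested.

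Dpt and Tgfbi, 2 members of the same role that fibroblasts express, rose. Dpt encodes dermatopontin, a binder of decorin (chromosome 1, 164624213 to 164651835). It had 2.11, 8.24 and 19.6 CPM in model mice and 1.70, 2.15 and 3.25 CPM in controls. Model 10 was the 1 model mouse within the control range (log2 fold change 1.98, SE 0.42, edgeR adjusted p = 0.000236). Tgfbi encodes a TGF-beta-induced protein that binds collagens and integrins (chromosome 13, 56757336 to 56787375). Its levels were 32.5, 63.3 and 81.1 CPM in model mice and 12.5, 19.7 and 23.8 CPM in controls. The groups did not overlap (log2 fold change 1.68, SE 0.15, edgeR adjusted p = 6.82e-10). Ecm1, extracellular matrix protein 1, was not called at 0.27 (SE 0.20, edgeR adjusted p = 0.251). It passed with the clock covariate (0.91, edgeR adjusted p = 0.0429) and with library totals alone (0.59, edgeR adjusted p = 0.00889).

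Of the lysyl oxidases, copper enzymes that oxidise lysine residues of collagen and elastin so that the fibres crosslink, 4 of 5 rose. Lox, the founding member, was low (chromosome 18, 52649139 to 52662939). It had 0.0834, 0.682 and 1.69 CPM in model mice and 0.0338, 0.148 and 0.264 CPM in controls. Model 10 lay within the control range and the other model mice above it (log2 fold change 2.40, SE 0.50, edgeR adjusted p = 0.000209). Loxl2, an enzyme that crosslinks collagen in liver scars, had 1.14, 3.14 and 4.46 CPM in model mice and 0.270, 0.730 and 1.24 CPM in controls (chromosome 14, 69846517 to 69933283). Again model 10 alone overlapped (log2 fold change 2.01, SE 0.25, edgeR adjusted p = 1.44e-07).

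Loxl1, which acts mainly on elastin, was the most abundant lysyl oxidase per length (chromosome 9, 58195021 to 58220469). It had 1.03, 2.82 and 9.17 CPM in model mice and 0.386, 0.941 and 1.44 CPM in controls (log2 fold change 1.99, SE 0.42, edgeR adjusted p = 0.000246). Model 10 was in the control range here too. Loxl3 had a log2 fold change of 1.56 with no overlap of the groups, and 535 bases of its exons overlap Htra2 on the opposite strand. Loxl4 was not called (log2 fold change 0.13, SE 0.25, edgeR adjusted p = 0.664). Its model mice lay between 0.627 and 1.32 CPM, inside the range of the controls from 0.237 to 1.86 CPM. Control 6 was the lowest control and control 2 the highest. Loxl4 was called higher with the clock covariate (1.84, edgeR adjusted p = 0.000828) and without control 2 (0.61, edgeR adjusted p = 0.0247). Its value was 1.90 with control 6 alone and -0.06 without control 6. Both the covariate fit and the single control lean on control 6.

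All 4 latent TGF-beta binding proteins rose. These proteins resemble fibrillins, and most tether latent TGF-beta to the matrix. Ltbp2, which binds fibrillin but no TGF-beta, had 0.445, 1.70 and 4.10 CPM in model mice and 0.252, 0.417 and 0.558 CPM in controls (chromosome 12, 84829986 to 84923306). Model 10 was the 1 mouse within the control range (log2 fold change 2.26, SE 0.40, edgeR adjusted p = 2.94e-05). Ltbp3 had 1.70, 3.41 and 6.41 CPM in model mice and 0.965, 1.50 and 1.83 CPM in controls (chromosome 19, 5790932 to 5808560). Model 10 again overlapped (log2 fold change 1.37, SE 0.26, edgeR adjusted p = 5.76e-05), and the call was lost with the clock covariate (1.10, edgeR adjusted p = 0.0580). Ltbp3 lies 258 kb from Efemp2 on chromosome 19.

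Ltbp4, the most abundant of the role per length, had 5.84, 11.9 and 15.6 CPM in model mice and 4.34, 6.89 and 8.60 CPM in controls (chromosome 7, 27004561 to 27037117). Models 9 and 13 lay within the control range (log2 fold change 0.81, SE 0.16, edgeR adjusted p = 0.000118). Ltbp1, the main binder of latent TGF-beta in this family, had a log2 fold change of 1.33 (SE 0.29, edgeR adjusted p = 0.000282), with models 9 and 10 in the control range.

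Compared per length, vitronectin transcripts outweighed the sum of the other members, with 77.6 ± 2.84% of the summed level in model mice and 88.1 ± 2.09% in controls (SD, n = 18 and 6). On the scale of CPM per kilobase of exon, Vtn had a median of 882 in model mice and 1536 in controls. Fn1 came next at 106 in model mice and 139 in controls, and Ecm1 followed at 27.1 in model mice and 23.6 in controls. Dcn had 23.6 in model mice and 10.8 in controls, Tgfbi 16.8 in model mice and 5.23 in controls, Bgn 16.8 in model mice and 6.34 in controls, and Sparc 15.4 in model mice and 4.38 in controls. In the model mice Vtn, Fn1 and Ecm1 did not overlap, and from Ecm1 down the range of each gene overlapped that of the next. The lowest members tested were Vcan, at 0.0538 in model mice and 0.00335 in controls, and Thbs3, at 0.118 in model mice and 0.0453 in controls.

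**Figure D2:**
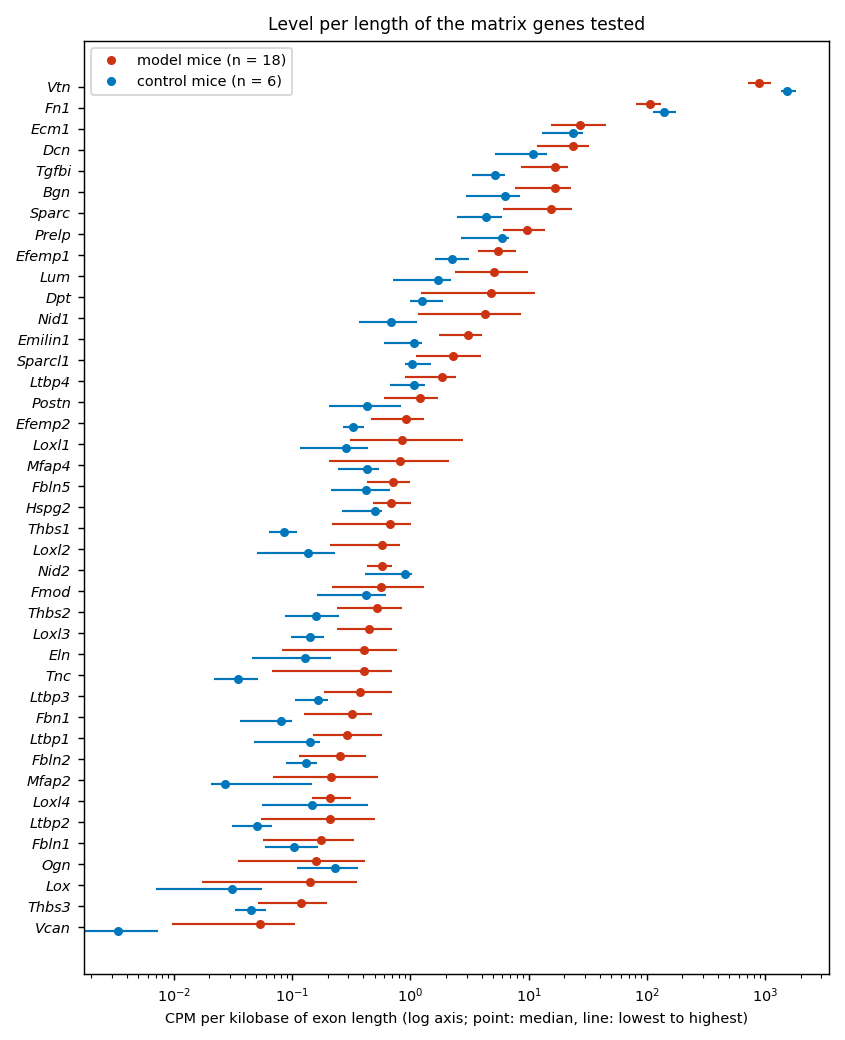
Level of each matrix gene tested in CPM per kilobase of exon length on a log axis, ordered by the model median; points are medians and lines run from the lowest to the highest mouse, red for model (n = 18) and blue for control (n = 6). Vtn stands apart at the top, and the control line of Vcan starts at 0, which a log axis cannot show.

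The adhesive role therefore held 91.2 ± 2.01% of the summed level per length in model mice and 97.7 ± 0.712% in controls (SD, n = 18 and 6). Small leucine-rich proteoglycans held 4.94 ± 1.16% in model mice and 1.38 ± 0.485% in controls. The sum of all members was lower in the model, with a median of 1153 CPM per kilobase in model mice and 1721 in controls. Without Vtn, Fn1 and Ecm1, genes that hepatocytes express, the sum was higher, with 63.8, 126 and 164 CPM per kilobase as lowest, median and highest in model mice and 26.1, 45.1 and 60.6 in controls. The groups of that sum did not overlap. Vtn and Fn1 were called lower and most other members higher, so the direction of that sum follows from those calls. Over these 40 members the small leucine-rich proteoglycans made up 46.2 ± 3.91% in model mice and 51.6 ± 3.89% in controls. Matricellular genes made up 16.8 ± 1.61% in model mice and 13.6 ± 1.08% in controls, and elastic fibre genes 10.3 ± 0.758% in model mice and 11.2 ± 0.911% in controls. Shares were not tested, and shares of 1 sum depend on each other.

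The 18 model mice differed widely among themselves. The highest over the lowest model mouse was 20.3-fold for Lox, 11.9-fold for Ogn, 11.0-fold for Vcan, 10.3-fold for Tnc and Mfap4 and 9.32-fold for Eln, against 1.56-fold for Vtn. Model 10 was the lowest mouse for 4 of these, and without it the ratio was 4.86-fold for Lox, 3.84-fold for Vcan, 2.72-fold for Tnc and 4.57-fold for Eln. The ratios of Ogn and Mfap4 did not depend on model 10. The lowest values of Lox, Vcan and Ogn were near the floor of 3 counts, so counting error weighs on their ratios. In model 10 Lox had 0.0834 CPM and Vcan 0.139 CPM, where 3 counts stand for 0.0828 CPM. Ogn had 0.0899 CPM in model 9, where 3 counts stand for 0.0694 CPM. The coefficient of variation over the model mice was 10.7% for Vtn at the lowest, 35.4% at the median and 62.6% for Mfap4 at the highest. Model 10 was the lowest model mouse for 28 members, and control 6 the lowest control for 22.

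**Figure D3:**
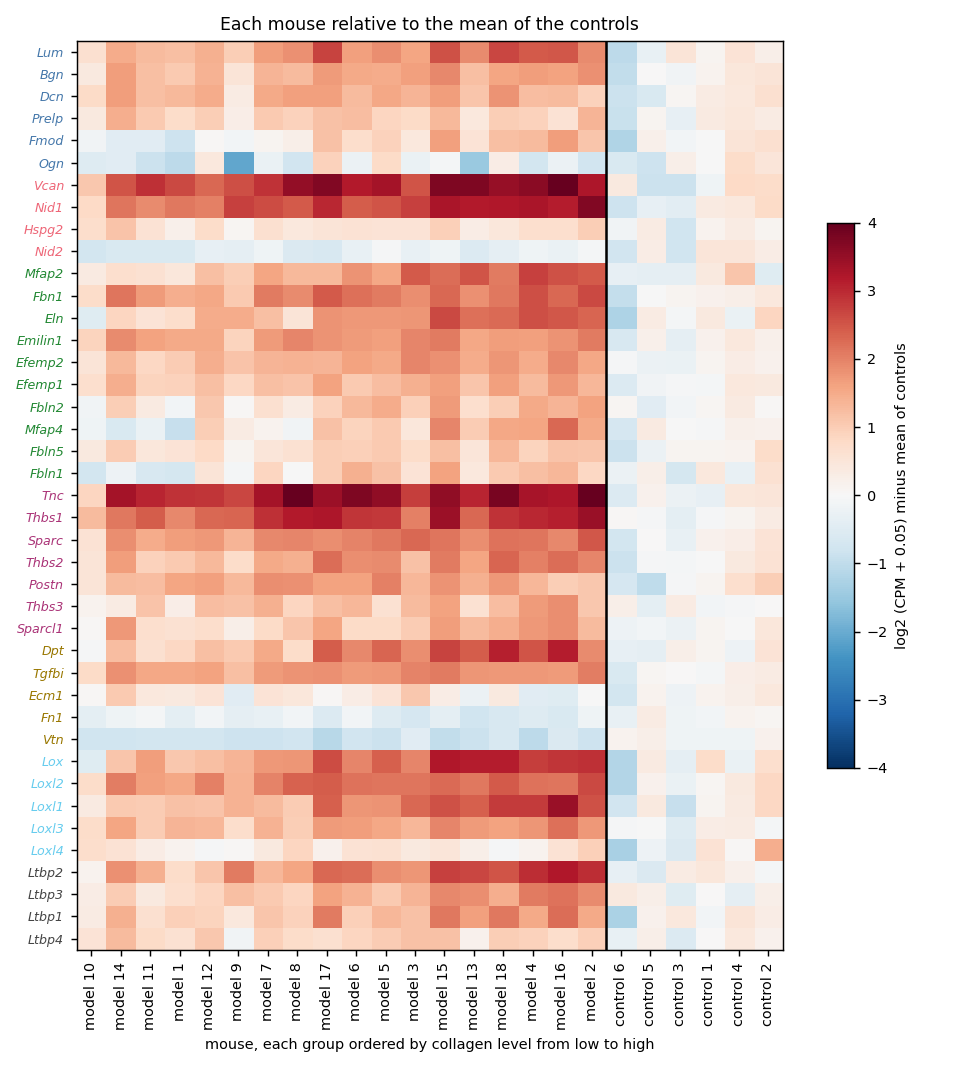
Level of each matrix gene tested in each mouse as log2 (CPM + 0.05) minus the mean of the controls, red for higher and blue for lower; model mice are left of the black line and controls right of it, each group ordered by its summed fibrillar collagen level. Vcan, Nid1 and Tnc are dark in nearly all model mice, model 10 at the far left is pale, and the Vtn row is blue in every model mouse.

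The spread was compared between the groups by an exact permutation test of the mean deviation from the group median of log2 CPM, two-sided over all divisions of the mice into groups of 18 and 6. No member passed after adjustment over all genes, whereas 0.0115% of all genes were wider and 0.0974% narrower in the model. At an unadjusted exact permutation p below 0.05, Mfap4 (0.0449), Dpt (0.0415) and Sparcl1 (0.0342) were wider in model mice, against 2.23% of all genes. Postn (0.0324) and Loxl4 (0.00824) were narrower in model mice, against 6.40%. The coefficient of variation of Loxl4 was 22.1% in model mice and 73.6% in controls.

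To compare the order of the model mice between genes, each gene was set against the summed level of Col1a1, Col1a2 and Col3a1 over the 18 model mice. Of the 41 members 30 followed collagen with a positive Pearson r (two-sided permutation p from 100000 resamples, adjusted over 17453 genes, below 0.05), against 13.9% of all genes, and 0 followed it with a negative r, before or after adjustment of the Pearson p, against 8.60% after adjustment. Of the 33 higher members 27 followed collagen. By Spearman's rho 26 members passed, 25 of them also by Pearson's r. Without models 10 and 14, which lie farthest from the median of the collagen sum, 24 of the 30 passed again. The share of all genes was counted for Pearson's r over the 18 mice only. The points share their libraries and scaling factors.

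Nid1 had the highest r of the members, at 0.94 (adjusted permutation p = 0.000483, rho 0.89, r = 0.91 without the 2 mice). Lox came next with r = 0.93 (adjusted permutation p = 0.000483, rho 0.90, r = 0.88 without the 2 mice). For Eln the value was r = 0.90 (adjusted permutation p = 0.000483, rho 0.89, r = 0.85 without the 2 mice). For these 3 genes of basement membrane, crosslinking and elastic fibres the unadjusted permutation p was 1e-05, the smallest that the resamples can give. Sparc had r = 0.88, Ltbp2 0.87, Vcan and Loxl1 0.86, Mfap2 0.85, Loxl2 and Efemp2 0.84, Ltbp3 0.83 and Dpt 0.82. Their adjusted permutation p was 0.00222 or lower, their rho 0.71 to 0.94 and their r without the 2 mice 0.68 to 0.93. For Tnc the relation rested on models 10 and 14 and was lost without them (r = 0.78, adjusted permutation p = 0.0205, rho 0.48, r = 0.45 without the 2 mice). That of Thbs1 was lost in the same way (r = 0.76, adjusted permutation p = 0.00373, rho 0.61, r = 0.56 without the 2 mice), as were those of Emilin1 (r = 0.49 without the 2 mice), Nid2 (0.49) and Thbs3 (0.40). Tgfbi lay at the threshold without them (r = 0.62, adjusted permutation p = 0.0504).

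A second group was higher in the model and did not pass the test against collagen within it. Its 6 members were Dcn (r = 0.24, adjusted permutation p = 0.487), Prelp (0.24), Hspg2 (-0.03), Fbln5 (0.54, adjusted permutation p = 0.0650), Postn (0.40) and Ltbp4 (0.14). Fbln5 passed by Spearman's rho (0.62, adjusted permutation p = 0.0333). For Dcn rho was -0.00 and for Prelp 0.05. In contrast Fmod and Fbln1, which were not called between the groups, followed collagen with r = 0.71 and 0.74, and Fmod had rho 0.88 and r = 0.86 without the 2 mice. Nid2, called lower, had r = 0.65 (adjusted permutation p = 0.0127) and r = 0.49 without the 2 mice. Vtn had r = 0.00, Fn1 -0.36 and Ecm1 -0.24, and none of these passed (adjusted permutation p = 0.998, 0.278 and 0.504). The difference between 2 correlations was not tested.

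**Figure D4:**
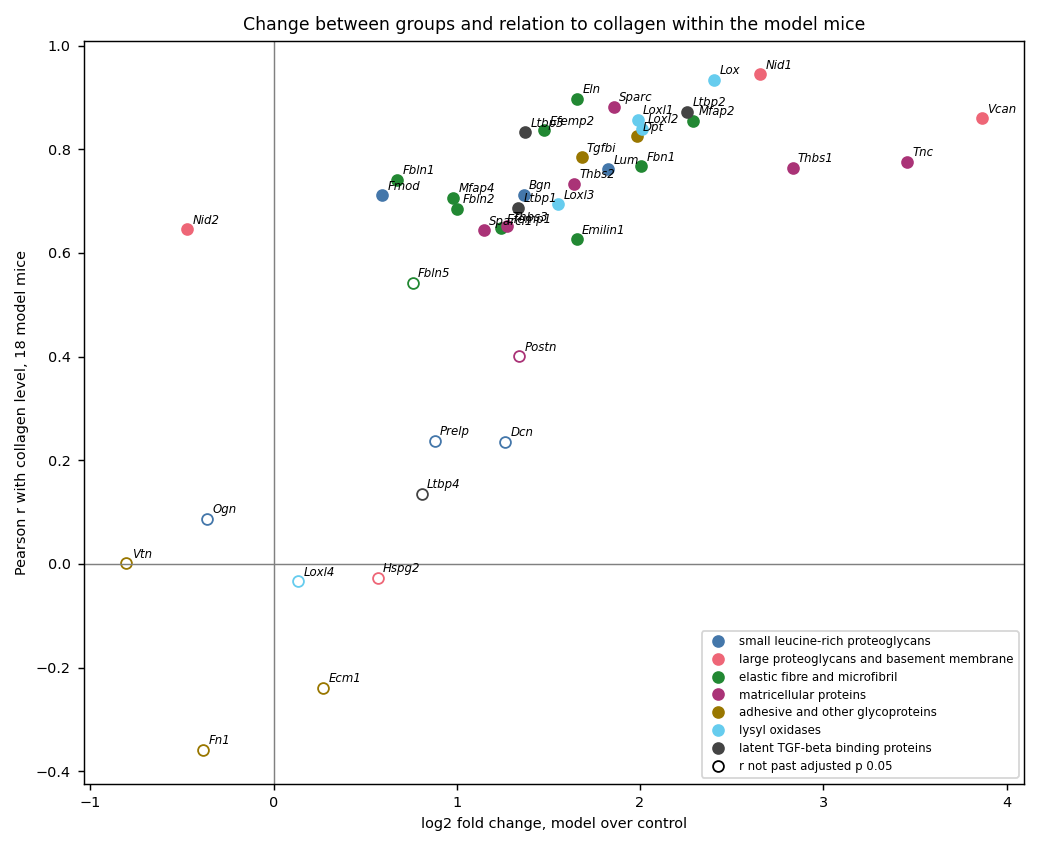
Pearson r of each matrix gene with the summed fibrillar collagen level over the 18 model mice (vertical axis) against its log2 fold change, model over control (horizontal axis), coloured by role; open points did not pass an adjusted permutation p of 0.05. Nid1 and Lox are at the top, while Dcn, Prelp, Postn, Ltbp4 and Hspg2 lie to the right of 0 with r from -0.03 to 0.40.

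**Figure D5:**
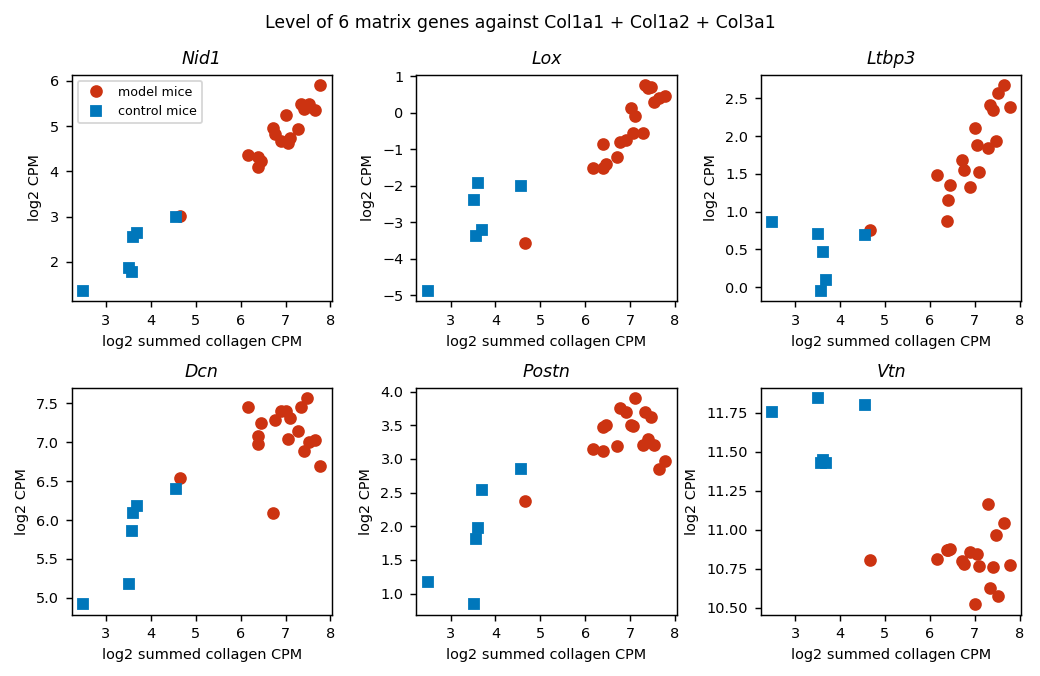
Log2 CPM of 6 matrix genes, picked after their values were seen, against the log2 summed CPM of Col1a1, Col1a2 and Col3a1, with model mice as red circles (n = 18) and controls as blue squares (n = 6). Nid1, Lox and Ltbp3 climb with collagen among the model mice, Dcn and Postn do not, and Vtn is below all controls at every collagen level.

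Some cell markers also followed collagen. Over the 18 model mice the summed portal fibroblast markers had r = 0.88 with collagen (rho 0.86, adjusted permutation p = 4e-05 over 8 lists, r = 0.90 without the 2 mice). The summed stellate cell markers had r = 0.37 (rho 0.16, adjusted permutation p = 0.186, r = 0.21 without the 2 mice). Hepatocyte markers had r = -0.84 (rho -0.82, adjusted permutation p = 8e-05, r = -0.73 without the 2 mice). Macrophage markers had r = 0.66 (rho 0.56, adjusted permutation p = 0.00394, r = 0.50 without the 2 mice) and cholangiocyte markers 0.81 (rho 0.85, adjusted permutation p = 4e-05, r = 0.82 without the 2 mice). Most of the cholangiocyte sum is Spp1, with a median of 156 CPM of a median sum of 167 CPM in model mice. Endothelial (-0.25), smooth muscle (0.13) and mesothelial markers (0.36) did not pass by Pearson's r. The mesothelial markers had rho 0.65 (adjusted permutation p = 0.00898). Whether these cells account for the order of the matrix genes was not tested.

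Beyond the 43 members, 126 other matrix genes in 6 lists went both ways. Of the 100 tested, 54 were called higher and 26 lower, beside 31.2% and 28.8% of all genes tested, and their median was 0.66 on the log2 scale. With the clock covariate 44 were higher and 10 lower. The lists were chosen with earlier results of these data known. Of 16 other matricellular and adhesive genes tested 11 rose and 1 fell. Svep1, a large cell adhesion protein, had a log2 fold change of 2.40 and Spp1, the osteopontin gene, of 1.96, while Npnt, the nephronectin gene, had -0.73 (edgeR adjusted p = 0.0232). With the clock covariate the calls of Spp1 (1.52, edgeR adjusted p = 0.199) and Npnt (0.38, edgeR adjusted p = 0.618) were lost. Of 10 other elastic fibre genes 8 rose, led by Fbn2, the fibrillin-2 gene, at 3.87 (SE 1.19) from 150 counts over the model mice and 2 over the controls, and by Fbln7 at 2.45. The call of Fbn2 was lost with the clock covariate (3.01, edgeR adjusted p = 0.231). Mmrn1 (-1.68) and Mfap1a (-0.25) fell, and with the clock covariate both calls were lost (-0.37 and -0.23, edgeR adjusted p = 0.784 and 0.283).

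Of 20 other proteoglycans and hyaluronan linkers tested 11 rose and 8 fell. Sdc3, a syndecan of the cell surface, had a log2 fold change of 2.60 and Srgn, the serglycin gene of leukocyte granules, of 2.46. The genes that fell were the syndecans Sdc1 (-0.66), Sdc2 (-0.68) and Sdc4 (-0.54), with Spock2 (-1.53), Gpc3 (-1.10), Tsku (-0.80), Gpc4 (-0.45) and Hapln4 (-0.41). Spock2, Gpc3, Gpc4 and Hapln4 were not called with the clock covariate. Collagen-modifying enzymes also divided, with 10 of 22 higher and 5 lower. Adamts14, a procollagen N-proteinase, rose by 2.04 on the log2 scale and Serpinh1, the collagen chaperone HSP47, by 2.01. In contrast Bmp1, a procollagen C-proteinase (-0.90), fell, as did P3h1 (-0.85), Ppib (-0.49), P4ha2 (-0.42) and Plod3 (-0.35), which act on procollagen inside the cell.

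Of 24 genes of glycosaminoglycan synthesis tested, 8 rose and 9 fell, shares near the 31.2% and 28.8% of all genes tested, around a median of -0.01 on the log2 scale. Those that rose were Chst11 (3.92), Ust (2.16), Dse (1.78), Xylt1 (1.76), Chst3 (1.59), Chst12 (1.58), Chst14 (1.24) and Chsy1 (0.75). Xylt1 starts the linker of such chains, Chst11 and Chst12 sulfate chondroitin, and Dse and Chst14 act on dermatan sulfate. Those that fell were Has3 (-0.95), B3gat3 (-0.64), Ndst2 (-0.56), Chpf2 (-0.51), Ndst1 (-0.38), Chsy3 (-0.35), B4galt7 (-0.31), Extl3 (-0.30) and Xylt2 (-0.26). They include linker enzymes, the chondroitin synthase genes Chpf2 and Chsy3 and the heparan sulfate enzymes Ndst1, Ndst2 and Extl3. With the clock covariate Ndst2 was the 1 gene of these 9 still called (-0.45, edgeR adjusted p = 0.00509), while 7 of the 8 that rose were. Of 8 proteoglycanases tested 6 rose, led by Adamts4 (2.10) and Adamts9 (1.58), both cleavers of versican and aggrecan, and Hyal2 fell (-0.21), a call lost with the clock covariate (-0.21, edgeR adjusted p = 0.172).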

How the data were processed

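Liver RNA of 18 model and 6 control mice was sequenced, 1 library per mouse. The authors deposited a table of raw whole-number counts per gene with Ensembl IDs, gene coordinates and an exon length column, per the file headers. The build GRCm39 comes from the submitters' processing notes. Which aligner, counter and annotation release were used, and whether strand was counted, is not given in the sources used here. The deposited length served only to express CPM per kilobase.

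Members were matched by symbol. The members, roles and lists were chosen with earlier results of these data known. Of 78298 IDs, 51498 carried a symbol and held 99.6% of counts. Counts were scaled with TMM factors, averaging 1.06 ± 0.0610 in model and 0.843 ± 0.0285 in control libraries (SD, n = 18 and 6), and filtered with filterByExpr by group. Groups were compared with edgeR 4.0.16 in R 4.3.3 (glmQLFit, robust), over 17456 genes. The fit was tested on simulated data. Per-gene CPM, spread and correlations (prior count 2) used numpy 2.4.6 and scipy 1.17.1. The clock index used 9 positive and 5 negative genes as a covariate. Alternatives were DESeq2 1.42.0, other scalings and filters, a replicate block and leaving out each mouse. Control 6 alone as control, and ranges without model 10, were added after seeing the data. Full values were given for the 2 called members of largest absolute log2 fold change in each role, the most abundant per length and every member called lower. Of other lists, the 2 largest changes and any against most of the list were named. The glycosaminoglycan genes that fell, and the proteoglycans and enzymes named beyond these, were chosen after their values were seen. Floors of 3 counts cover counting error only. Whether the numbered libraries are separate animals rests on the labels, and p-values measure the spread between them. Of 168 within-group library pairs none agreed within sampling noise.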

Additional observations from a re-analysis of the deposited data

Results flagged for a closer look

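Mfap5, the gene of the microfibril protein MAGP-2, had 1 control library that stood far from the rest. Control 4 had 0.0355 CPM, which is 1 count, and the other 5 controls had 0, so the gap equalled the whole range of the group (ratio 1). With 1 count in the whole group this ratio is fixed by the zeros, and a single count lies under the floor of 3 counts.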

How the results depend on the processing

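Of 1391 alternative fold changes of members, 1352 kept their direction and side of the threshold, 26 lost the call, 7 gained one and 6 turned sign. Most of these fits leave out 1 mouse and share every other library with the main fit, so they are not separate checks. The turned values were those of Ogn (0.35 with the clock covariate, 0.43 with control 6 alone), Nid2 (0.35 and 0.43 under the same settings) and Loxl4 (-0.00 without control 3, -0.056 without control 6). Loxl4 gained a call without control 2 (0.61, edgeR adjusted p = 0.0247). The count of higher members ran from 32 to 33 when 1 mouse was left out, and from 24 to 36 under the other settings, where 24 comes from control 6 as the single control, which leaves the spread of controls unmeasured. The count of lower members was 3 with each mouse left out and 1 with the clock covariate, with control 6 alone and with library totals alone, where the same 2 genes, Nid2 and Fn1, were lost each time. The 36 higher members came from library totals alone, where 9406 of all 17456 genes tested were called higher. The clock covariate and control 6 alone both lean on control 6, so they are not separate checks. The cause was not tested. No member had a wider spread after adjustment, while 21 had a larger coefficient of variation in the model mice.

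The labels do not say whether equal replicate numbers pair mice. The correlations of deviations between model and control libraries of equal number lay between -0.293 and 0.0674, and they were not tested. The replicate block gave 33 higher and 2 lower members, against 4427 and 3378 of all 17456 genes tested. Nid2 was not called there (-0.27, edgeR adjusted p = 0.335). Over the 18 model mice, 26 members followed collagen by Spearman, 31 with library totals, 30 against Col1a1 alone and 25 without the 2 farthest mice. The share of all genes was counted for the main setting only, at 13.9%, so these counts are not set against all genes. Leaving out Fn1, Vtn and Ecm1 changed the model shares of the summed level per length to 46.2% for small proteoglycans, 4.73% for large proteoglycans, 10.3% for elastic fibres, 16.8% for matricellular proteins, 17.7% for adhesive proteins, 1.94% for lysyl oxidases and 2.27% for latent TGF-beta binding proteins. Depth limits Vcan, Mfap2 and Lox in controls, and Aspn and Mfap5 in both groups. It also limits the lowest model mouse of Lox, Mfap2, Ogn and Vcan.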
